A study of Mus musculus with 4 samples.

Results

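Secreted factors through which astrocytes act on synapses were followed in astrocytes with an shRNA against Phf8 and in astrocytes with a control shRNA. The 10 genes are the thrombospondin genes Thbs1, Thbs2, Thbs3 and Thbs4, the SPARC family genes Sparc, Sparcl1, Smoc1, Spock1 and Spock2, and the chordin-like gene Chrdl1. They were chosen by symbol from the 55421 genes listed, each matched 1 identifier, and 9 of them passed the low-count filter that left 21042 genes to test. The cells were mouse astrocytes of the C57BL/6J strain, obtained in culture by differentiating neural stem cells in medium with serum. Lentivirus delivered the Phf8 shRNA to 2 samples and the control shRNA to 2 samples, so cells of both groups had been infected. Stranded, ribosomal RNA-depleted libraries of total RNA were sequenced. No allele, dose or time after infection is given in the labels, and a single shRNA against Phf8 is labelled, with no rescue.

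Thrombospondins and SPARC proteins are matricellular: they are secreted into the extracellular matrix and act on cells there, with little structural role of their own. In rodent cultures, thrombospondins from astrocytes induce synapses by binding the calcium channel subunit that Cacna2d1 encodes. Hevin, the product of Sparcl1, promotes synapses by linking adhesion proteins across the synapse, and the SPARC protein opposes hevin. Chrdl1, a secreted BMP antagonist, promotes the maturation of synapses through AMPA receptors in mouse cortex. Phf8 encodes a histone demethylase whose PHD finger binds trimethylated lysine 4 of histone H3, a mark found at CpG-rich promoters.

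Reads assigned to genes numbered 44724759 and 36839530 in Phf8 shRNA replicates 1 and 2, and 42245602 and 40472627 in control shRNA replicates 1 and 2. The targeted gene Phf8 stood at 44.3 and 42.3 CPM in the Phf8 shRNA libraries, against 53.3 and 53.0 CPM in the control libraries. CPM are reads per 1000000 of the library's reads, scaled by TMM (trimmed mean of M-values). The level of Phf8 was 18.5% lower with its shRNA (log2 fold change -0.30 ± 0.06 SE, adjusted p = 1.72e-06). Mitochondrial ribosomal RNA took 27.8% and 28.2% of the reads with Phf8 shRNA, against 21.2% and 22.5% with control shRNA. The study calls its replicates biological but does not say whether each was a culture or an infection of its own. The p-values therefore reflect just the variation among these 4 libraries, part of which may be technical.

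The windows before the transcription start are shown for Thbs2 and Sparc, which were both lower with Phf8 shRNA, and for Thbs3, a relative of Thbs2 that differed little. Each is the 250 bases before the RefSeq start on the gene's strand in GRCm38.p6 (the mm10 assembly), 5′ to 3′, and capitals mark each CpG. They lie at chr17:14694263-14694512 (minus strand), chr11:55420081-55420330 (minus strand) and chr3:89214930-89215179 (plus strand). The RefSeq start of Sparc lies 3103 bases inside the span of the gene as counted, so its window is not upstream of the outermost start in GENCODE, whereas the starts of Thbs2 and Thbs3 differ from GENCODE by 27 and 0 bases.
Thbs2: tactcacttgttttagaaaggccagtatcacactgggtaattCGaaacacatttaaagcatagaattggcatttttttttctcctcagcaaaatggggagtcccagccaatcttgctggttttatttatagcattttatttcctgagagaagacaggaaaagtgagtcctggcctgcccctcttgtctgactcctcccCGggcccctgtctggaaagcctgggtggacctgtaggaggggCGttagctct
Sparc: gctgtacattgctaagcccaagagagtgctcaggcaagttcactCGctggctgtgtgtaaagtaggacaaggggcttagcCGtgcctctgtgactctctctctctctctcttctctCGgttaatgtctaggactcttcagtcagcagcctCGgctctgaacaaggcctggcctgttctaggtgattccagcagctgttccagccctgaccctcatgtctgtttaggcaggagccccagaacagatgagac
Thbs3: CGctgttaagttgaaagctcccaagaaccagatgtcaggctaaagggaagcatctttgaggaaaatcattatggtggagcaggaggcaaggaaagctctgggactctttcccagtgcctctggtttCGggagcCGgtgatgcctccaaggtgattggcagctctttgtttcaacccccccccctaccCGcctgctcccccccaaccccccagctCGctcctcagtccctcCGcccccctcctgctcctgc
The windows hold 3 CpG in Thbs2, 4 in Sparc and 6 in Thbs3, against a median of 6 over 32851 RefSeq windows of the same length. The share of windows with fewer CpG than these is 29.0% for Thbs2, 37.8% for Sparc and 49.6% for Thbs3. RefSeq windows of Thbs4, Spock1 and Spock2 were also matched and hold 19, 20 and 7 CpG, and those of Thbs1, Sparcl1, Smoc1 and Chrdl1 were not. The motifs searched, on both strands, were TGANTCA for AP-1, GGAATG for TEAD factors, GGGCGG for the GC box, TATAAA for the TATA box, CCAAT for the box of that name and CAGAC for SMAD proteins. Thbs2 holds TATAAA at 1 place, CCAAT at 2 and CAGAC at 2, Sparc holds CAGAC at 1, and Thbs3 holds GGGCGG at 1 and CCAAT at 1, with no matches of different motifs overlapping. Of all windows, 6.7% hold TGANTCA, 12.6% GGAATG, 32.7% GGGCGG, 12.4% TATAAA, 33.8% CCAAT and 42.2% CAGAC. Binding of Phf8 and histone marks were not measured in these data, and the matches are a description of letters.

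The question put to these libraries is how transcripts of the secreted factors differ when Phf8 is targeted. Thbs1, Thbs2, Chrdl1 and Sparc were far lower with Phf8 shRNA, Sparcl1 was higher, and Thbs3, Smoc1 and Spock2 differed little. Of the 9 genes tested, 8 passed at an adjusted p under 0.05, 2 higher and 6 lower. Over all genes tested, 52.1% passed, 24.8% higher and 27.3% lower, so a call as such was common in these libraries. Of all calls, 47.7% were higher with TMM scaling and 58.0% with upper-quartile scaling. Of the 9 genes tested, 4 passed and were lower by at least 2-fold, as were 8.71% of all genes tested. Of the same 9 genes, 0 passed and were higher by at least 2-fold, as were 5.50% of all genes tested. The median log2 fold change was -0.27 over the 9 genes and 0.01 over all genes tested. In all 9 genes the libraries of the groups did not overlap, as in 73.9% of all genes tested. In bulk samples such as these, fewer cells of a type and less RNA per cell cannot be told apart, and markers of several cell types, given after the gene lists, also moved.

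**Figure D1:**
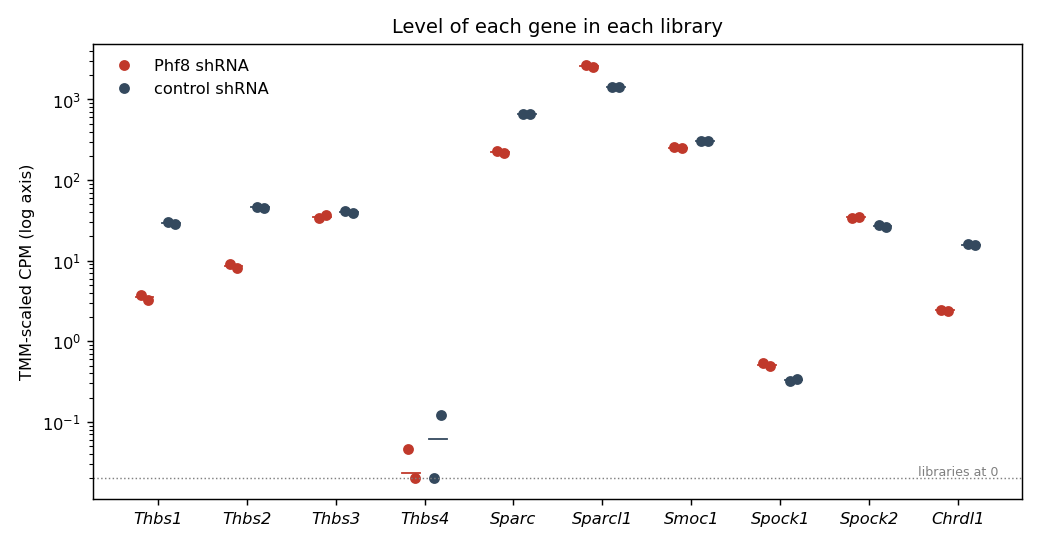
TMM-scaled CPM (log axis) of the 10 genes, with 1 point per library and a line at the mean of each group (n = 2); libraries with no reads are drawn on the dotted line. Both Phf8 shRNA libraries lie below both control libraries for Thbs1, Thbs2, Sparc and Chrdl1 and above them for Sparcl1.

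Among the thrombospondins, Thbs1 and Thbs2 encode the subgroup that forms trimers and carries type I repeats, and both are made by immature astrocytes in rodents. Thbs1 (ENSMUSG00000040152, chromosome 2, 118111876 to 118127133, plus strand) stood at 3.75 and 3.27 CPM in the Phf8 shRNA libraries, against 30.6 and 28.2 CPM in the control libraries. Both Phf8 shRNA libraries were low, and the groups were far apart. The log2 fold change was -3.06 ± 0.09 (SE), a fall of 88.0%, and the edgeR quasi-likelihood test gave an adjusted p of 4.66e-228. Of all genes tested, 1.42% had a larger absolute change. Exons of a transcript on the opposite strand, Gm29233, cover 3.4% of the exonic length of Thbs1, and whether the counting used strand is not stated in the sources used here.

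Thbs2 (ENSMUSG00000023885, chromosome 17, 14665500 to 14694235, minus strand) stood at 9.18 and 8.01 CPM in the Phf8 shRNA libraries, against 46.9 and 45.6 CPM in the control libraries. Its log2 fold change was -2.42 ± 0.07 (SE), 81.3% less transcript, with an adjusted p of 2.67e-227, and the groups did not overlap. The fall was thus shared by both genes of the trimeric subgroup, and the ratio of Thbs1 to Thbs2 reads was lower too. That ratio is taken within a library, so no scaling between libraries changes it. It was 0.408 and 0.408 with Phf8 shRNA and 0.652 and 0.619 with control shRNA, a difference of -0.64 on the log2 scale. An exact two-sided permutation test over 2 against 2 libraries cannot go below p = 0.333, and gave that value for each of the 4 ratios computed.

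Thbs3 and Thbs4 encode thrombospondins of the pentameric subgroup, which lack the type I repeats. Thbs3 (ENSMUSG00000028047, chromosome 3, 89215180 to 89226837, plus strand) stood at 33.7 and 36.9 CPM in the Phf8 shRNA libraries, against 41.1 and 38.9 CPM in the control libraries. The groups did not overlap, but the gap between their nearest libraries was smaller than the gap within either group. The log2 fold change was -0.18 ± 0.06 (SE; 95% interval -0.30 to -0.06) and the adjusted p was 0.00692. This call did not hold everywhere: the adjusted p was 0.129 with upper-quartile scaling, where the log2 fold change was -0.10, 0.0642 in DESeq2, 0.0980 without control shRNA replicate 1 and 0.185 without Phf8 shRNA replicate 1. Exons of Mtx1 on the opposite strand cover 6.59% of its exonic length.

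The ratio of Thbs3 to Thbs1 reads within a library was 9 and 11.3 with Phf8 shRNA, against 1.34 and 1.38 with control shRNA, a 7.41-fold difference. Thbs4 (ENSMUSG00000021702, chromosome 13, 92751590 to 92794818, minus strand) had 2 and 0 reads with Phf8 shRNA and 0 and 5 reads with control shRNA. It did not pass the low-count filter. A library of this depth cannot tell such a level from none, since 3 reads correspond to 0.0693 to 0.0817 CPM here, and no fold is given.

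Scaled by exonic length, the transcripts of the thrombospondin family were mostly Thbs3 with Phf8 shRNA and a mixture of 3 genes with control shRNA. Thbs3 made up 78.3% and 82.0% of the length-scaled reads of the 4 genes with Phf8 shRNA, against 42.1% and 41.8% with control shRNA. Thbs2 made up 14.7% and 12.3% with Phf8 shRNA, against 33.1% and 33.8% with control shRNA. Thbs1 made up 6.91% and 5.77% with Phf8 shRNA, against 24.9% and 24.1% with control shRNA. These shares describe the makeup within each library, and a larger share of Thbs3 stood beside a level of Thbs3 that was no higher.

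**Figure D2:**
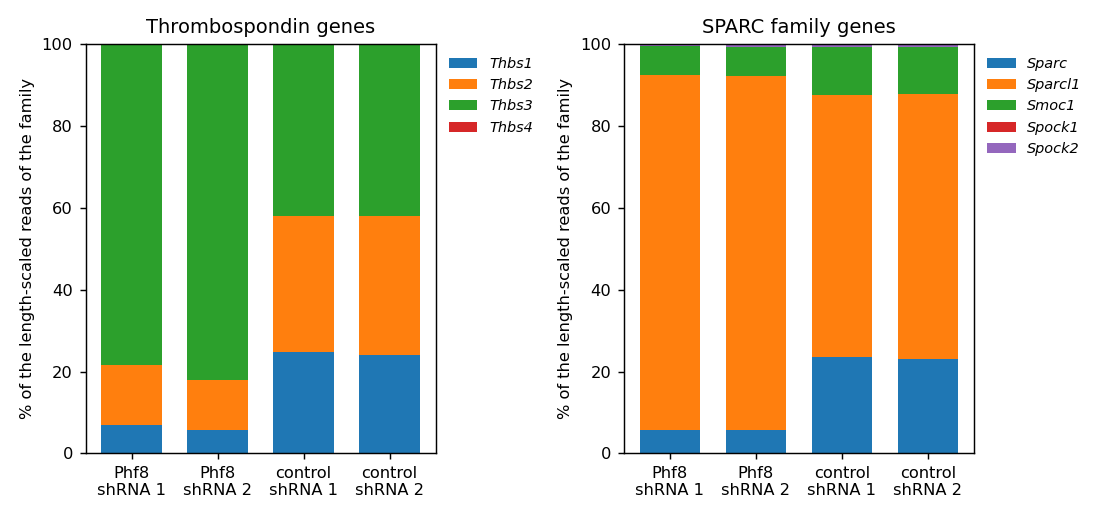
Share of each gene in the length-scaled reads of its family, as stacked bars that sum to 100% for each of the 4 libraries; thrombospondin genes on the left, SPARC family genes on the right. Thbs3 takes 78.3% and 82.0% of the thrombospondin reads with Phf8 shRNA, against 42.1% and 41.8% with control shRNA, and Sparcl1 takes the largest share of the SPARC family in each library.

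Sparcl1 and Sparc, whose products have opposite roles at synapses, moved in opposite directions. Sparcl1 (ENSMUSG00000029309, chromosome 5, 104079111 to 104113733, minus strand) stood at 2702 and 2535 CPM in the Phf8 shRNA libraries, against 1409 and 1432 CPM in the control libraries. Both Phf8 shRNA libraries were high, with a log2 fold change of 0.88 ± 0.07 (SE), or 84.3% more transcript, and an adjusted p of 1.33e-38. By mean CPM, Sparcl1 was the gene of rank 18 among all 55421 listed. Leaving out the 20 most abundant genes, as an alternative does, therefore leaves out Sparcl1 itself.

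Sparc (ENSMUSG00000018593, chromosome 11, 55394500 to 55423183, minus strand) stood at 229 and 218 CPM in the Phf8 shRNA libraries, against 663 and 657 CPM in the control libraries. Its log2 fold change was -1.56 ± 0.06 (SE), 66.1% less transcript, with an adjusted p of 3.07e-145, and the groups did not overlap. The ratio of Sparcl1 to Sparc reads within a library was 11.8 and 11.6 with Phf8 shRNA, against 2.12 and 2.18 with control shRNA. The difference was 5.44-fold, or 2.44 on the log2 scale, and lay between 2.42 and 2.46 when any 1 library was left out.

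**Figure D3:**
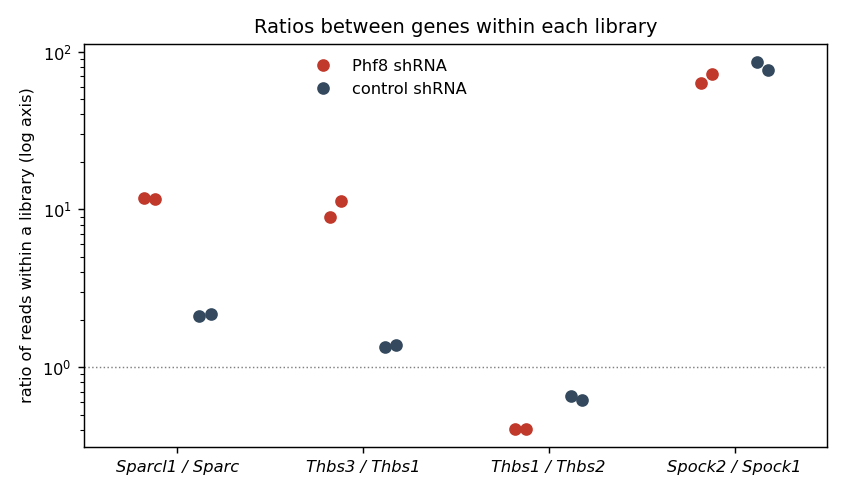
Ratio of the reads of a pair of genes within each library (log axis), with 1 point per library, Phf8 shRNA left of control shRNA; the dotted line marks equal reads. The ratio of Sparcl1 to Sparc is 11.8 and 11.6 with Phf8 shRNA, against 2.12 and 2.18 with control shRNA, and the ratio of Spock2 to Spock1 lies between 63.1 and 85.6 in all 4 libraries.

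Smoc1 and Spock2 differed less between the groups than Sparc and Sparcl1 did, and the counts of Spock1 were too low to resolve its change. Smoc1 encodes a calcium-binding matrix protein that opposes BMP signalling in frog embryos. It (ENSMUSG00000021136, chromosome 12, 81026808 to 81186414, plus strand) stood at 256 and 248 CPM in the Phf8 shRNA libraries, against 306 and 301 CPM in the control libraries. The fall of 17.0% (log2 fold change -0.27 ± 0.06 SE, adjusted p = 9.16e-06) was larger than the spread within either group but small beside that of Sparc.

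Spock1 and Spock2 encode testicans, proteoglycans of the brain matrix. Spock2 (ENSMUSG00000058297, chromosome 10, 60106219 to 60135198, plus strand) stood at 33.6 and 35.3 CPM in the Phf8 shRNA libraries, against 27.7 and 26.3 CPM in the control libraries. It was 27.4% higher with Phf8 shRNA (log2 fold change 0.35 ± 0.06 SE, adjusted p = 2.55e-07), and the groups did not overlap. Spock1 (ENSMUSG00000056222, chromosome 13, 57421195 to 57908332, minus strand) had 23 and 18 reads with Phf8 shRNA and 14 and 14 reads with control shRNA, or 0.532 and 0.490 CPM against 0.324 and 0.342 CPM. It did not pass the test (log2 fold change 0.62, 95% interval -0.13 to 1.37, adjusted p = 0.171). At these counts the ratio of Phf8 shRNA to control shRNA reads, adjusted for depth, was 1.54, with an exact binomial 95% interval of 0.931 to 2.59 that covers counting error only.

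Chrdl1 (ENSMUSG00000031283, chromosome X, 143285674 to 143394262, minus strand) stood at 2.47 and 2.40 CPM in the Phf8 shRNA libraries, against 15.9 and 15.7 CPM in the control libraries. The libraries within each group were close and the groups far apart. The log2 fold change was -2.69 ± 0.11 (SE), 84.5% less transcript, with an adjusted p of 6.86e-125, and 2.04% of all genes tested had a larger absolute change.

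**Figure D4:**
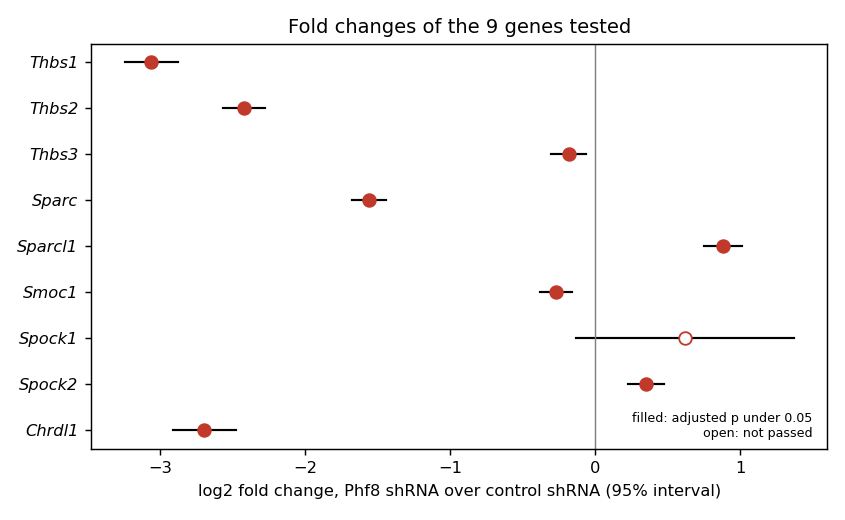
Log2 fold change of Phf8 shRNA over control shRNA for the 9 genes tested, with 95% intervals of the edgeR fit; filled points passed at an adjusted p under 0.05. Thbs1, Chrdl1, Thbs2 and Sparc lie at -3.06, -2.69, -2.42 and -1.56, Sparcl1 lies at 0.88, and the interval of Spock1 spans 0.

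Per length of all exons, Sparc and Smoc1 traded places in the order of the genes between the 2 groups, as did Thbs2 and Spock2. The trade of Sparc and Smoc1 depended on the length used. In TPM (reads per kilobase of exon, scaled to sum to 1000000 in each library), Sparcl1 was highest at 2420 ± 77.6 with Phf8 shRNA and 1473 ± 8.15 with control shRNA (mean ± SD, n = 2 each). With Phf8 shRNA, Smoc1 (196 ± 1.73 TPM) and Sparc (160 ± 3.62 TPM) followed, then Thbs3 (19.9 ± 1.51), Spock2 (16.9 ± 0.818), Thbs2 (3.33 ± 0.278), Thbs1 (1.57 ± 0.130), Chrdl1 (0.978 ± 0.009), Spock1 (0.166 ± 0.007) and Thbs4. With control shRNA, Sparc (531 ± 13.0 TPM) stood above Smoc1 (265 ± 7.57 TPM), and Thbs2 (20.1 ± 0.744 TPM) stood above Spock2 (14.9 ± 0.826 TPM). Thbs3 (25.3 ± 1.42 TPM) came next below Sparc and Smoc1 in all 4 libraries. Thbs1 (14.8 ± 1.09 TPM) and Spock2 did not differ beyond their spread with control shRNA. The length matters for Sparc: when the longest transcript was used in place of all exons, Sparc came to 236 and 230 TPM with Phf8 shRNA, above Smoc1 at 174 and 172 TPM. With control shRNA, Sparc was then also above Smoc1, at 763 and 741 TPM against 232 and 224 TPM.

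Genes whose levels over the 4 libraries ran most like those of a member were found by the Euclidean distance of centred log2 CPM, among protein-coding genes whose mean reached 5 CPM. Nearest to Thbs1 were S1pr3, Fas and Cd14, encoding a sphingosine phosphate receptor, a death receptor and a co-receptor for lipopolysaccharide, at distances of 0.041, 0.078 and 0.092. Nearest to Sparc were Scd4, Glis3 and Nhs (0.037, 0.037 and 0.046), and nearest to Sparcl1 were Appl2, Spire1 and Dusp7 (0.018, 0.018 and 0.019). With 4 libraries in 2 groups, a short distance says little beyond a similar fold change between the groups.

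Relatives outside the 10 genes included the gene with the deepest fall of the families. Smoc2, the closest relative of Smoc1, stood at 0.677 ± 0.237 CPM with Phf8 shRNA and 12.8 ± 0.204 CPM with control shRNA, a log2 fold change of -4.26 ± 0.15 (SE; adjusted p = 9.65e-164). Of 10 relatives, 8 were tested, of which 2 were higher, 3 lower and 3 did not pass (median log2 fold change -0.02). Beside the counts of this and each later list stand the shares over all genes tested, 24.8% higher and 27.3% lower. The follistatin-like genes Fstl5 and Fstl4 were lower (log2 fold changes -1.16 and -0.80), and Fstl1, a secreted relative of Sparc, was slightly higher (0.15, adjusted p = 0.0256). Vwc2, which encodes a BMP antagonist of the brain, was higher (0.75). The thrombospondin relative Comp, the BMP antagonist gene Chrd and Kcp had log2 fold changes of 0.29, 0.04 and -0.09 and did not pass. Spock3 had no reads in any library and Chrdl2 had 1 read with Phf8 shRNA and 6 with control shRNA in all.

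Receptors and partners of these factors went in both directions. Of 26 genes, all tested, 8 were higher, 12 were lower and 6 did not pass, with a median log2 fold change of -0.04. Among receptors of thrombospondins, Cacna2d1, the synaptogenic receptor, was lower at 49.8 ± 1.46 CPM with Phf8 shRNA, against 67.2 ± 0.957 CPM with control shRNA (log2 fold change -0.43 ± 0.06 SE). The syndecan gene Sdc4 (log2 fold change -2.10) and the integrin gene Itgav (-0.99) were lower, and the lipoprotein receptor gene Vldlr (1.51) was higher. Of the partners of hevin, the neurexin gene Nrxn2 was higher (log2 fold change 1.07), and the neuroligin gene Nlgn1 rose slightly, by 0.13 (adjusted p = 0.0383).

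Other matricellular genes were mostly lower. Of 20 genes, 15 were tested, of which 11 fell, each by at least 2-fold, 2 rose and 2 did not pass, and the median log2 fold change was -2.17. The share of all genes tested that passed and were lower by at least 2-fold was 8.71%. Ccn5, Ccn3, Ccn4 and Tgfbi, which are 4 of the 11, had at most 3 reads in each Phf8 shRNA library and passed the filter through the control libraries. The median without them, chosen after seeing the data, was -1.60, and 8 genes were lower when 1 CPM in at least 2 libraries was required. Ccn1, which encodes an integrin ligand, stood at 5.49 ± 0.215 CPM with Phf8 shRNA and 48.9 ± 1.26 CPM with control shRNA (log2 fold change -3.15 ± 0.08 SE). Matn2, Lgals1 and Lgals3, encoding a matrilin and galectins, fell with log2 fold changes of -2.84, -2.17 and -3.89. The tenascin genes Tnr and Tnc rose (1.25 and 0.60), and because Tnr was abundant, the summed level of the list was higher with Phf8 shRNA, at 1323 to 1354 CPM, against 1042 to 1068 CPM with control shRNA.

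Among proteases and other enzymes that act on matricellular proteins, 16 of 18 genes were tested, of which 4 were higher, 10 lower and 2 did not pass (median log2 fold change -0.42). The shares over all genes tested were 24.8% higher and 27.3% lower. The protease genes Adamts9, Htra1 and Adamts5 rose, with log2 fold changes of 1.49, 1.88 and 0.89, and the lysosomal protease gene Ctsb fell by 1.52 on the log2 scale. Adamts4, whose product cleaves hevin, was slightly lower (-0.30, adjusted p = 0.00309). Exons of genes on the opposite strand cover 12% of the exonic length of Adamts9 and 12.8% of that of Ctsb.

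Chrdl1 and Smoc1 are linked to BMP signalling, in which secreted BMP ligands act through SMAD proteins on target genes such as Id1 and Id3. Of 28 BMP pathway genes, 24 were tested, of which 4 were higher, 13 lower and 7 did not pass (median log2 fold change -0.22). Of the 13, 1 had at most 3 reads in each Phf8 shRNA library and passed the filter through the control libraries. The median without it, chosen after seeing the data, was -0.20. Of all genes tested, 24.8% were higher and 27.3% lower. The target gene Id3 stood at 5.56 ± 1.55 CPM with Phf8 shRNA and 28.8 ± 0.811 CPM with control shRNA (log2 fold change -2.35 ± 0.09 SE). The other Id genes on the list were split: Id1 and Id4 were lower (-1.43 and -0.44) and Id2 was higher (0.85). The ligand gene Bmp6 was lower (-2.81). The secreted BMP regulator gene Bmper rose by 2.58, whereas Nbl1, which encodes a BMP antagonist, fell by 1.32 on the log2 scale. Of 20 genes of TGF-beta signalling, a growth factor that the thrombospondin encoded by Thbs1 can activate, 16 were tested, of which 5 were higher, 10 lower and 1 did not pass (median -0.37). Tgfbr2, Ltbp1, Tgfb3 and Ski, encoding a receptor, a latency protein, a ligand and a repressor, had log2 fold changes of -1.74, -1.81, -1.54 and -0.80. Opposite-strand exons cover 12.4% of the exonic length of Tgfb3.

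Other factors by which astrocytes act on synapses were split. Of 16 genes, 13 were tested, of which 4 were higher, 5 lower and 4 did not pass (median log2 fold change -0.10). Of the 5, 1 had at most 3 reads in each Phf8 shRNA library and passed the filter through the control libraries. The median without it, chosen after seeing the data, was -0.016. Gpc4, a glypican gene whose product recruits AMPA receptors, stood at 6.44 ± 0.055 CPM with Phf8 shRNA and 26.2 ± 0.328 CPM with control shRNA (log2 fold change -2.02 ± 0.09 SE). Its relative Gpc6 had a log2 fold change of -0.10 and did not pass (adjusted p = 0.446). The cytokine gene Il33 rose by 2.00, and Ogn and Nptxr, encoding osteoglycin and the neuronal pentraxin receptor, fell by 2.29 and 1.06 on the log2 scale. Of the exonic length of Nptxr, 17.2% is shared with Npcd on the same strand, so its count is uncertain. Over the 7 lists together, 118 of 137 different genes were tested, of which 29 were higher and 64 lower. Of all genes tested, 24.8% were higher and 27.3% lower.

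**Figure D5:**
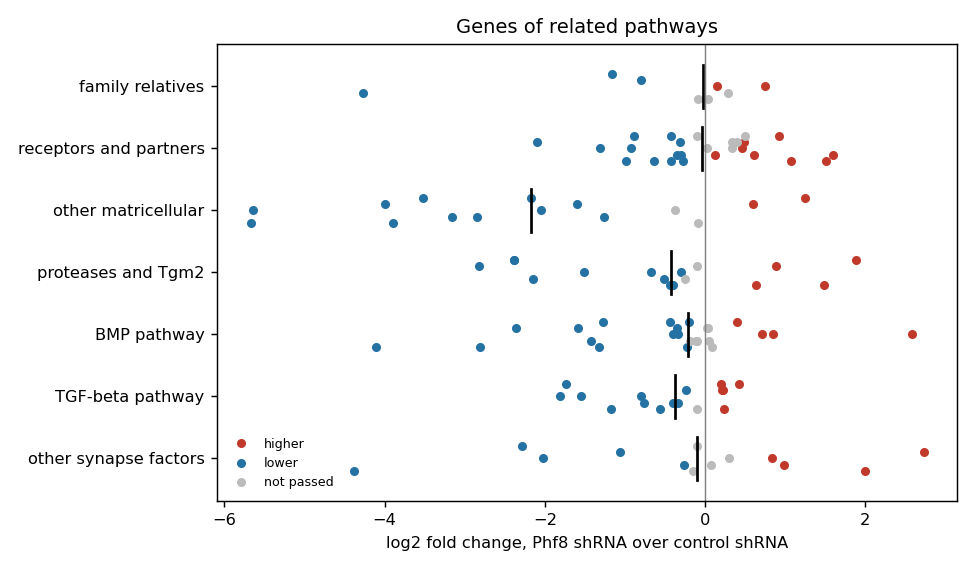
Log2 fold change of Phf8 shRNA over control shRNA for each tested gene of the 7 related lists, 1 point per gene; colours give genes higher, lower or not passed at an adjusted p under 0.05, and black lines the medians. The median lies at -2.17 for the other matricellular genes and between -0.42 and -0.02 for the other 6 lists.

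Markers of several cell types moved between the groups. Beside the marker counts that follow, 24.8% of all genes tested were higher and 27.3% lower. All 12 astrocyte markers were present at 1 CPM or more in the control libraries. Of these, 3 were higher and 8 lower, with summed levels of 6777 to 7543 CPM with Phf8 shRNA, against 10809 to 11145 CPM with control shRNA. Gfap (1172 CPM with Phf8 shRNA, 3971 CPM with control shRNA) made up most of that difference. Without Gfap the sums were 5753 to 6224 CPM with Phf8 shRNA, against 6946 to 7067 CPM with control shRNA. Slc1a2 (975 and 135 CPM) was among the higher markers. Of 14 oligodendrocyte lineage markers, 12 were tested and 11 were higher, with sums of 1277 to 1323 CPM against 751 to 798 CPM in control libraries. Of 14 neuron markers, 9 were tested and 8 were higher, with sums of 538 to 543 CPM against 271 to 276 CPM in control libraries. Of 12 progenitor markers, 6 were higher and 5 lower, with sums of 3480 to 3798 CPM against 7412 to 7575 CPM in control libraries. Vim, which encodes vimentin, sets that difference: without it the sums were 2289 to 2445 CPM with Phf8 shRNA, against 2190 to 2220 CPM with control shRNA. Those sums hold changes in opposite directions. Fabp7 (1209 CPM with Phf8 shRNA, 419 CPM with control shRNA) was higher. Nes (215 and 1042 CPM), Top2a (7.62 and 27.3 CPM) and Mki67 (9.82 and 30.1 CPM) were lower.

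Thbs1, Thbs2 and Sparc are also expressed by fibroblasts and vessel cells. Of 16 fibroblast markers, 8 were tested, of which 1 was higher and 6 lower, with sums of 240 to 244 CPM with Phf8 shRNA, against 294 to 303 CPM with control shRNA. Without Pdpn, the gene of largest difference, the sums were 197.9 to 198 CPM with Phf8 shRNA, against 189 to 193 CPM with control shRNA. Most of those sums came from Pdgfra, which is also on the oligodendrocyte list. Pdgfra stood at 186 and 188 CPM with Phf8 shRNA, against 157 and 154 CPM with control shRNA. Among fibroblast markers that control cells did express, the collagen genes Col6a1 (0.050 CPM with Phf8 shRNA, 11.7 CPM with control shRNA) and Col6a2 (0.114 and 5.67 CPM) were lower. With Phf8 shRNA, Col6a1 had 2 and 2 reads and Col6a2 had 4 and 5, so both passed the filter through the control libraries. Ogn (0.929 and 4.59 CPM) and Pdpn (44.2 and 107 CPM) were lower too, as were Tbx18 (3.63 and 5.55 CPM) and Fbln1 (5.55 and 7.85 CPM). The marker that was higher was Pdgfra (187 and 155 CPM). The fibroblast genes Col1a2, Dcn and Lum were near 0 in both groups, with at most 0.014 CPM in the mean of either group, and Twist2 had no reads. Col1a1 and Col3a1 averaged 0.197 and 0.0871 CPM with Phf8 shRNA, against 0.310 and 0.272 CPM with control shRNA. Of 16 endothelial and mural markers, 13 were tested, of which 2 were higher and 5 lower, with sums of 234 to 241 CPM against 131 to 145 CPM in control libraries. Notch3 (163 CPM with Phf8 shRNA, 62.7 CPM with control shRNA) sets that difference, and without it the sums overlapped, at 72.5 to 77.4 CPM with Phf8 shRNA and 72.7 to 77.4 CPM with control shRNA. Most of the sums without Notch3 came from Cspg4 (47.3 CPM with Phf8 shRNA, 45.1 CPM with control shRNA), which did not pass. Pdgfrb (23.9 and 9.54 CPM) was higher with Phf8 shRNA. Acta2 (0.436 and 8.81 CPM), Kdr (0.465 and 4.49 CPM), Rgs5 (0.505 and 2.67 CPM) and Kcnj8 (0.054 and 1.57 CPM) were lower with Phf8 shRNA. Kcnj8 had 0 and 4 reads with Phf8 shRNA, and 1 further lower marker had at most 3 reads in each Phf8 shRNA library. Both passed the filter through the control libraries. The endothelial gene Cdh5 had no reads. Of 14 microglial markers, 5 were tested and 2 were lower, with sums of 6.11 to 6.18 CPM against 8.95 to 9.66 CPM in control libraries, and C1qa, C1qb and Trem2 had no reads. Of the 2 lower microglial markers, 1 had at most 3 reads in each Phf8 shRNA library and passed the filter through the control libraries. The part of these shifts in the levels of the 10 genes was not tested.

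The common biological coefficient of variation between replicates was 0.0364, a spread at which small differences pass. When it was set to 0.2 (likelihood ratio test), 5 of the 9 genes passed, against 15.7% of all genes tested: Thbs1, Thbs2, Sparc and Chrdl1 lower and Sparcl1 higher.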

How the data were processed

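RNA was measured in 4 libraries, 2 with Phf8 shRNA and 2 with control shRNA, grouped by their titles. Per the submitters' processing notes, HISAT2, HTSeq and DESeq2 were used with mm10; no versions, counting options or annotation release are stated there. The authors deposited raw counts per gene, which is how the values were read, since they are whole and library totals differ. Symbols were found for 55154 of 55421 identifiers; exonic lengths and overlaps came from GENCODE M21 (mm10), and promoter sequences from RefSeq (GRCm38.p6).

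All counts were fitted with edgeR 4.0.16 in R 4.3.3 (filterByExpr, TMM, quasi-likelihood F test, two-sided, Benjamini-Hochberg adjustment over 21042 genes, threshold 0.05), and the fit was tested on simulated data. Each standard error is the absolute log2 fold change over the root of F. The depth was 36839530 to 44724759 reads per library. The members, lists, ratios and alternatives were chosen with earlier results of these data known. Named genes were all members and tested relatives, Phf8, and the 3 nearest patterns to Thbs1, Sparc and Sparcl1. In each list, the 4 called genes of smallest p (fewer where fewer passed) were also named. Further list genes with a direct link to a member (Cacna2d1, Nlgn1, Adamts4, Tnr, Tnc, Gpc6) were named after their values were seen. So were Id1, Id2, Id4 and the cell type markers. Alternatives were other scalings, DESeq2 1.42.0, limma-voom (limma 3.58.1), other filters, spreads and thresholds, a replicate block, and each library left out. A result on 1 further list gene is not reported here.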

Additional observations from a re-analysis of the deposited data

How the results depend on the processing

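Thbs1, Thbs2 and Chrdl1 kept their direction and passed under all 17 alternatives, with log2 fold changes of -3.17 to -2.97, -2.53 to -2.33 and -2.75 to -2.61. Sparc (-1.61 to -1.48) and Sparcl1 (0.83 to 0.96) lost the call only at a coefficient of variation of 0.4 (adjusted p = 0.146 and 0.826, likelihood ratio test), and Smoc1, Spock2 and Phf8 lost it at 0.1, 0.2 and 0.4. Thbs3 lost it in 7 of 17 alternatives and Spock1 passed in none of 16. No member's direction was reversed. The count of higher members, 2, fell to 1 without mitochondrial and the 20 most abundant genes, which include Sparcl1, to 1 at a coefficient of 0.1 and of 0.2, to 0 at 0.4 and to 0 with a 2-fold minimum, and the count of lower members, 6, fell to 3 at 0.4. Over the 7 lists, 29 higher and 64 lower genes became 14 and 39 at 0.2, 4 and 20 at 0.4, and 9 and 35 with a 2-fold minimum. Leaving out each library gave 2 higher and 5 to 6 lower members. The replicate numbers share only a number: with the replicate block 2 members were higher and 6 lower, as without it, and the deviations of same-numbered libraries were uncorrelated (r = 0.000197 across genes, which are not independent). Upper-quartile scaling shifted the median of all genes by 0.08 (log2), and higher genes then made up 58.0% of calls, against 47.7% with TMM and 40.3% with library size alone. Depth limits Thbs4 and Spock1, which had at most 23 reads in a library. In alternatives chosen after seeing the data, leaving out the gene of largest difference turned the sign of a list's summed CPM (Phf8 shRNA minus control shRNA) to 5.36 for the relatives, -0.026 for endothelial and mural markers, 6.71 for fibroblast markers, 162 for progenitor markers, -255 for other matricellular genes and 4.87 for proteases and other enzymes. For fibroblast markers, most of the sum that was left came from Pdgfra, which is also on the oligodendrocyte list. Leaving out genes of at most 3 reads in each Phf8 shRNA library turned the median log2 fold change of microglial markers to 0.10.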
